A study of Capra hircus with 20 samples.

Results

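Expression of 10 genes of the arcuate feeding circuit was examined in the hypothalamus of 20 female Jining grey goats, an early-maturing breed, at 4 developmental stages. The genes were 4 peptide genes, POMC, CARTPT, NPY and AGRP, and 6 receptor genes, LEPR, MC3R, MC4R, GHSR, INSR and NPY1R. They were chosen by symbol for their place in this circuit and were matched through the goat gene annotation to 10 of the 21071 genes in the expression table. The stages were D1, M2, M4 and M6, that is 1, 60, 120 and 180 days of age, with 5 goats each and 1 library of rRNA-depleted RNA per goat. All goats were healthy females kept under the same feeding conditions, and no treatment or genotype separated the groups, so a stage differs from another in age and in everything that comes with it. Levels are FPKM, fragments scaled to transcript length and to the mapped fragments of the library, which can be compared between genes.

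The arcuate nucleus lies at the base of the hypothalamus beside the median eminence and holds a pair of neuron populations with opposed effects on feeding. Neurons that make POMC, most of which also make CART (the product of CARTPT) in rodents, release the melanocortin alpha-MSH, which acts on MC4R and MC3R and lowers food intake. Neurons that make NPY and AGRP raise food intake, NPY through receptors such as NPY1R and AGRP by blocking the melanocortin receptors. Leptin, insulin and ghrelin reach these neurons through LEPR, INSR and GHSR, and this link to energy stores is known as a permissive input to the onset of puberty.

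All 10 genes reached 0.1 FPKM in 5 or more libraries and so were among the 16771 genes tested. Of the 10, 5 were listed at 0 in 1 library or more. By the mean over 20 libraries the order was INSR 11.6, CARTPT 9.47, NPY1R 7.35, NPY 3.37, LEPR 1.90, POMC 1.79, AGRP 1.19, MC4R 0.877, MC3R 0.192 and GHSR 0.186 FPKM. Several neighbours in that order differed by less than the SD of their difference across libraries on the scale log2(FPKM + 0.1). This SD describes the spread between libraries and does not test the mean difference. The difference of NPY from LEPR was -0.047 ± 1.81 (SD, n = 20), that of LEPR from POMC was 0.10 ± 1.36, that of MC3R from GHSR was -0.43 ± 1.38, and that of CARTPT from NPY1R was -1.20 ± 2.16. CARTPT exceeded NPY1R in only 5 of 20 libraries although its mean was higher, because 1 library held 57.2% of its summed FPKM. INSR exceeded CARTPT in 18 libraries, NPY1R exceeded NPY in 18, POMC exceeded AGRP in 19 and MC4R exceeded MC3R in 17. AGRP exceeded MC4R in 1 library, although AGRP had the higher mean.

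Marker genes showed that the libraries did not hold the same mixture of regions. RAX, a tanycyte gene of the ventral hypothalamus, reached at most 0.129 FPKM and was listed at 0 in 15 libraries, NKX2-1, a transcription factor of the ventral hypothalamus, was at 0 in 4, KISS1 was at 0 in 15 and GHRH was above 0 in 1. The summed FPKM of 10 striatum markers was 1344 in D1 replicate 4, 698 in M6 replicate 2 and 337 in M2 replicate 4, against 20.5 to 48.3 in the other 17 libraries, and that of 8 cortex markers was 138 in M4 replicate 1 against 1.54 to 10.1 elsewhere. The summed FPKM of 10 thalamus markers was 773 in M4 replicate 2 and 283 in D1 replicate 3, against 18.8 to 159 in the others. The sum of 9 neuron markers was under 500 FPKM in M2 replicates 1 and 3 and M6 replicate 3. TH and SLC6A3, which mark dopamine neurons, were high together in 7 libraries spread over the 4 stages, at 16.8 to 56.3 and 22.6 to 59.2 FPKM, and were at most 1.12 and 3.31 FPKM in the others. Pituitary genes were scarce, with a sum over 12 markers of 1.02 to 9.58 FPKM, highest in M2 replicates 3 and 1. In tissue RNA of this kind, fewer cells of a type and less RNA per cell cannot be told apart.

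No gene of the 10 was called between stages. In the F test over the 4 stages, 0 of 10 had an adjusted p under 0.05 (limma, with Benjamini-Hochberg adjustment over all genes), against 0.00596% of all genes tested, and 1 of 10, POMC, had an unadjusted p under 0.05, against 10.4% of all genes. Between pairs of stages a gene was called when its adjusted p was under 0.05 and its log2 fold change was 1 or more in either direction. By this rule 0 of 10 were called in M2 vs. D1, M4 vs. M2, M6 vs. M4 and M6 vs. M2, where 0% of all genes were, in M4 vs. D1, where 0.0537% were, and in M6 vs. D1, where 0.00596% were. At an unadjusted p under 0.05, limma gave 0 of 10 in M2 vs. D1, against 15.6% of all genes, 0 in M6 vs. M4 against 6.87%, 0 in M6 vs. D1 against 7.41% and 0 in M6 vs. M2 against 6.14%. In M4 vs. M2 it gave 1, POMC, which was lower (8.68% of all genes, 4.72% lower), and with M4 against D1 it gave 2, POMC and AGRP, both lower (8.71% of all genes, 6.21% lower). In no comparison did the 5 libraries of a stage lie wholly above or below the 5 of another for any of the 10 genes. This count of 0 of 10 stood against 3.82% of all genes in M2 vs. D1, 1.09% for M4 and M2, 0.775% for M6 and M4, 1.93% for M4 and D1, 2.84% for M6 and D1 and 0.757% for M6 and M2. The lowest adjusted p of any member in any comparison was 0.456, for AGRP in M2 vs. D1.

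POMC, the precursor of alpha-MSH and beta-endorphin, had the lowest mean at M4, but its stages overlapped. The gene lies on chromosome 11 from 73833491 to 73836904 in the ARS1.2 assembly. Its levels in replicates 1 to 5 were 1.60, 1.06, 4.38, 2.23 and 1.59 FPKM at D1 and 1.67, 5.63, 3.51, 1.74 and 1.31 FPKM at M2. They were 0.682, 0.707, 0.191, 0.755 and 1.80 FPKM at M4 and 0.891, 1.23, 0.284, 2.69 and 1.77 FPKM at M6. At M4, 4 of 5 goats lay below every goat of D1 and M2, while the fifth, replicate 5, lay inside both ranges. The means were 2.17 ± 1.30, 2.77 ± 1.81, 0.827 ± 0.589 and 1.37 ± 0.912 FPKM (SD, n = 5).

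On the log2(FPKM + 0.1) scale, which understates the change of low genes, the M4 vs. M2 fold change of POMC was -1.66 (SE 0.55, 95% interval -2.81 to -0.52), with an unadjusted p of 0.00661 and an adjusted p of 0.499 in limma. That of M4 vs. D1 was -1.37 (SE 0.55, interval -2.52 to -0.23, unadjusted p 0.0212, adjusted p 0.497), and that of M2 vs. D1 was 0.29 (SE 0.55, interval -0.86 to 1.44, adjusted p 0.833). The F test over the stages gave an unadjusted p of 0.0279 and an adjusted p of 0.443, rank 1052 among the 16771 genes. The M4 vs. M2 and M4 vs. D1 comparisons share the M4 libraries, so their values are not separate evidence. Without the 4 libraries with cortex or striatum markers the log2 fold change of POMC was -1.77 in M4 vs. M2 (adjusted p 0.571) and -1.33 in M4 vs. D1 (adjusted p 0.617). ISL1, a transcription factor that drives Pomc in mice, was listed at 0 in 4 of 5 M4 libraries and at 0.0461 FPKM in the fifth, against means of 1.33 ± 1.17 at D1, 1.95 ± 2.92 at M2 and 1.82 ± 1.64 FPKM at M6. NKX2-1, the ventral hypothalamic factor named above, also had its lowest mean at M4. Its means were 1.04 ± 1.37, 1.24 ± 1.09, 0.0988 ± 0.123 and 0.826 ± 0.691 FPKM at D1, M2, M4 and M6. Its F test gave an unadjusted p of 0.177 and an adjusted p of 0.583. By library, ISL1 and POMC did not always go together. M2 replicate 2, the highest for POMC, had ISL1 at 0, and M6 replicate 1 had ISL1 at 3.89 and POMC at 0.891 FPKM. D1 replicate 3 held POMC at 4.38 and ISL1 at 1.86 FPKM. Over the 18 tested genes of the arcuate list the median fold change in M4 vs. M2 was -0.78 against -0.021 for all genes, with 4 genes lower and 0 higher at an unadjusted p under 0.05, where 4.72% of all genes were lower, and with 0 called. Several marker lists of other regions and cells also had negative medians in the same comparison. The median was -0.87 over 18 tested markers of other hypothalamic nuclei (2 lower, 0 higher), -0.85 over 6 of pituitary (1 lower), -0.56 over 8 of microglia (2 lower) and -0.47 over 10 of oligodendrocytes (0 lower). It was -0.43 for striatum, -0.40 for endothelium, -0.23 for ependyma and tanycytes and -0.16 for astrocytes. For other lists it was above 0, at 0.054 for neurons, 0.17 for cortex, 0.21 for choroid plexus and 0.27 for thalamus. M2 replicates 2 and 3, the highest of M2 for POMC, had pituitary marker sums of 3.29 and 9.58 FPKM. They held the pituitary marker FSHB at 0.353 and 0.914 FPKM, and FSHB was at 0 in the rest of M2. M2 replicate 1, with POMC at 1.67 FPKM, had a pituitary marker sum of 8.44 FPKM. The part of tissue composition, including any pituitary tissue, in the low POMC at M4 was not tested.

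**Figure D1:**
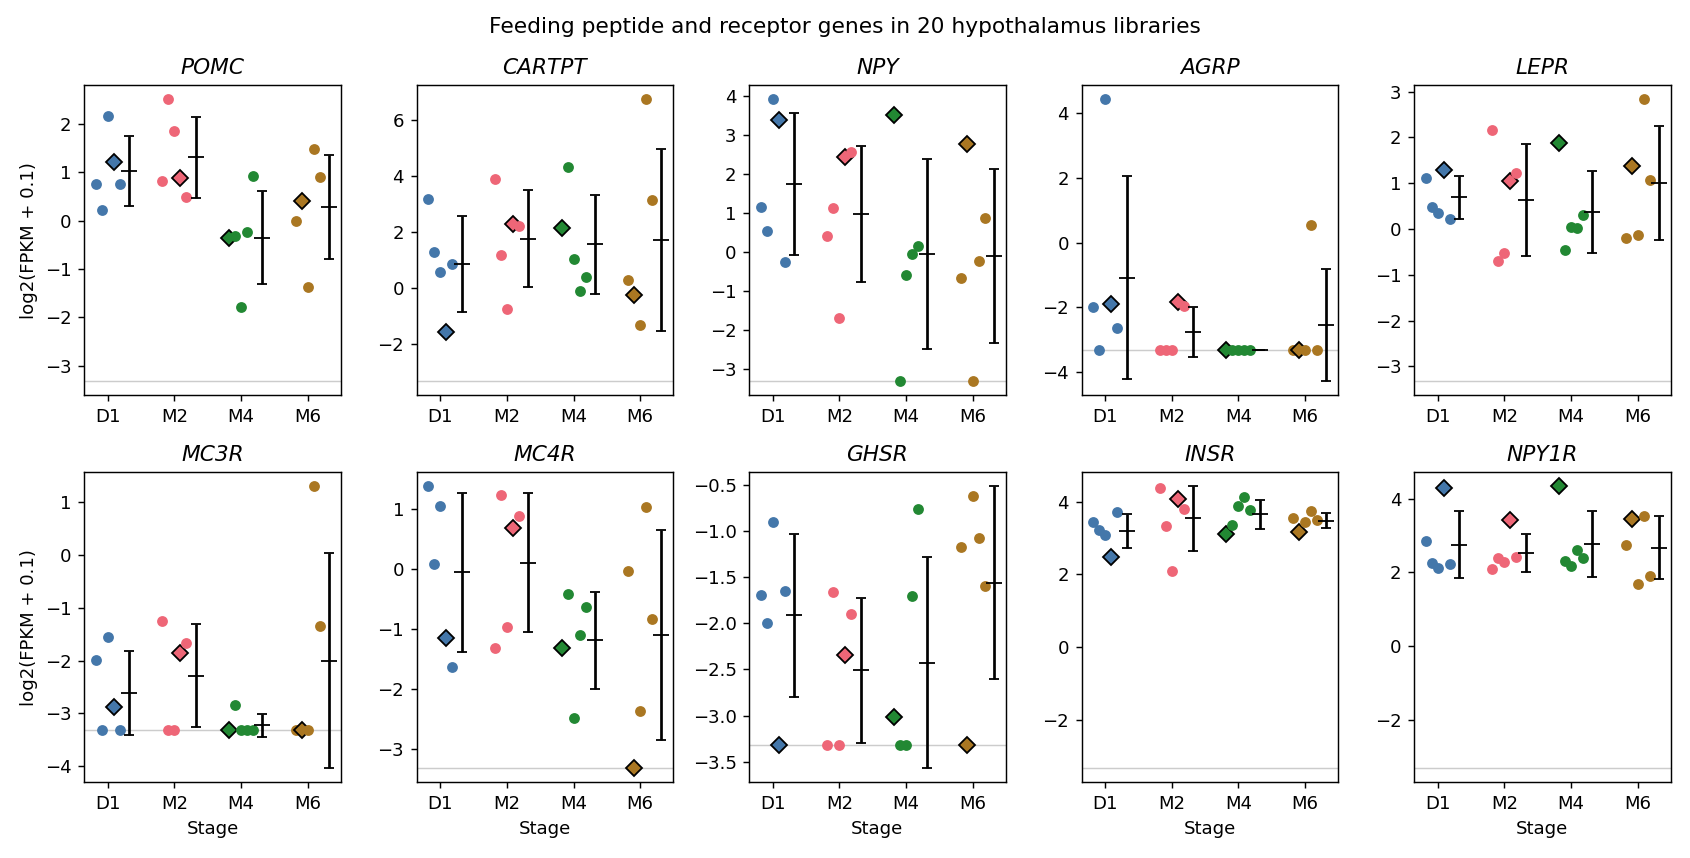
Level of each of the 10 genes in every library, as log2(FPKM + 0.1) against stage, with the mean and SD of the 5 goats as a bar beside the points. Diamonds mark the 4 libraries with cortex or striatum markers, the grey line marks 0 FPKM, and for each gene the stages overlap.

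AGRP, the antagonist of MC3R and MC4R, was detected in few goats. It lies on chromosome 18 from 36350896 to 36352309. At D1 the replicates were at 0.151, 0, 21.7, 0.168 and 0.0603 FPKM, and at M2 at 0, 0, 0, 0.181 and 0.157 FPKM. All 5 M4 libraries were listed at 0, and at M6 the values were 0, 0, 0, 1.36 and 0 FPKM. AGRP was thus listed at 0 in 13 of 20 libraries, and D1 replicate 3 exceeded every other library by more than 10 FPKM. The M2 vs. D1 fold change was -1.67 (SE 1.07, interval -3.90 to 0.56, adjusted p 0.456), and it was -0.29 without D1 replicate 3 (adjusted p 0.899). In M4 vs. D1 the unadjusted p was 0.0493 and the adjusted p 0.571 in limma, and the unadjusted p was 0.231 without D1 replicate 3. No fold change is given for comparisons with M4, where AGRP was listed at 0 throughout. The F test gave an adjusted p of 0.615.

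NPY, which stimulates feeding, ranged from 0 to 14.9 FPKM. It is encoded on chromosome 4 from 48611208 to 48618326 and is also made by interneurons of the cortex and striatum. Replicates 1 to 5 were at 2.12, 1.34, 14.9, 10.3 and 0.732 FPKM at D1 and at 1.21, 2.09, 0.206, 5.26 and 5.79 FPKM at M2. They were at 11.3, 0, 0.554, 0.866 and 0.997 FPKM at M4 and at 0.521, 6.70, 0, 0.742 and 1.72 FPKM at M6. Each stage held 1 to 2 goats several times above the rest. The means of 5.88 ± 6.38, 2.91 ± 2.49, 2.75 ± 4.81 and 1.94 ± 2.74 FPKM (SD, n = 5) at D1, M2, M4 and M6 therefore had SDs close to or above the means. The M2 vs. D1 fold change was -0.78 (SE 1.18, interval -3.24 to 1.68, adjusted p 0.786), and the F test gave an adjusted p of 0.689.

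The high NPY values at M4 and M6 came from the libraries with cortex or striatum markers. NPY was the highest of its stage in M4 replicate 1 and M6 replicate 2, and the next to highest in D1 replicate 4 and M2 replicate 4. At D1 the highest value was instead in replicate 3, the library that also held the high AGRP and the highest KISS1, at 0.839 FPKM, and the single GHRH value above 0. Its striatum marker sum was 36.7 FPKM and its cortex marker sum 3.21 FPKM, both within the range of the other libraries. Its thalamus marker sum, 283 FPKM, was the next to highest of the 20 libraries, after M4 replicate 2. At M2 the highest value was in replicate 5, with striatum and cortex marker sums of 30.3 and 8.94 FPKM. The 6 libraries with NPY above 5 FPKM were thus the 4 with cortex or striatum markers and 2 without them, D1 replicate 3 and M2 replicate 5. AGRP was above 0 in 4 of these 6, at 21.7 FPKM in D1 replicate 3 and at 0.157 to 0.181 FPKM in D1 replicate 4 and M2 replicates 4 and 5, and was listed at 0 in M4 replicate 1 and M6 replicate 2. The M2 vs. D1 fold change of NPY was -0.78 with all libraries and -0.74 without the 4 libraries with cortex or striatum markers (adjusted p 0.759 in limma). It changed sign to 0.30 without the 3 libraries low in neuron markers.

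CARTPT, the gene of the CART peptide on chromosome 20 (9879360 to 9881688), had the widest spread of the 10 genes. Replicates 1 to 5 were at 8.91, 2.37, 1.38, 0.234 and 1.72 FPKM at D1 and at 15.03, 2.17, 0.491, 4.82 and 4.60 FPKM at M2. They were at 4.35, 20.1, 1.94, 0.837 and 1.21 FPKM at M4 and at 1.11, 0.748, 0.303, 108.4 and 8.78 FPKM at M6. After M6 replicate 4 the next highest library was M4 replicate 2, which also had the highest thalamus marker sum, 773 FPKM. M6 replicate 4 was more than 5 times that library, and the other 4 goats of M6 lay within the range of D1. Of these, replicate 3 lay below every goat of M2, and replicates 2 and 3 lay below every goat of M4. The means were 2.92 ± 3.43, 5.42 ± 5.66, 5.69 ± 8.18 and 23.9 ± 47.4 FPKM (SD, n = 5). The M2 vs. D1 fold change was 0.91 (SE 1.25, interval -1.70 to 3.52, adjusted p 0.762) and the F test gave an adjusted p of 0.941.

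M6 replicate 4 was the highest of the 20 libraries for CARTPT, LEPR and MC3R, and the next to highest for AGRP. CART is made in the paraventricular nucleus and other hypothalamic sites as well as in the arcuate nucleus. This library held OXT at 413 FPKM, TRH at 55.0, SST at 123, OTP at 11.1 and BRS3 at 9.99 FPKM, the highest of the 20 libraries for each. OXT, TRH, OTP and SIM1, here at 13.6 FPKM, mark neurons of the paraventricular nucleus. Other genes of the lists for the arcuate nucleus and other hypothalamic nuclei were also highest in this library. Among them were FEZF1 at 2.12, HMX3 at 2.01, SIX3 at 6.57, GAL at 6.58 and PRLR at 10.5 FPKM. TAC3, at 12.6 FPKM, was the next to highest. Not all genes of these lists were high, as BSX and GHRH were listed at 0 and PMCH was at 0.841 FPKM. The same library had 767 FPKM summed over 10 oligodendrocyte markers, against 6272 to 16031 in the other M6 libraries. The part of paraventricular or other hypothalamic cells in its CARTPT, LEPR and MC3R values was not tested.

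**Figure D2:**
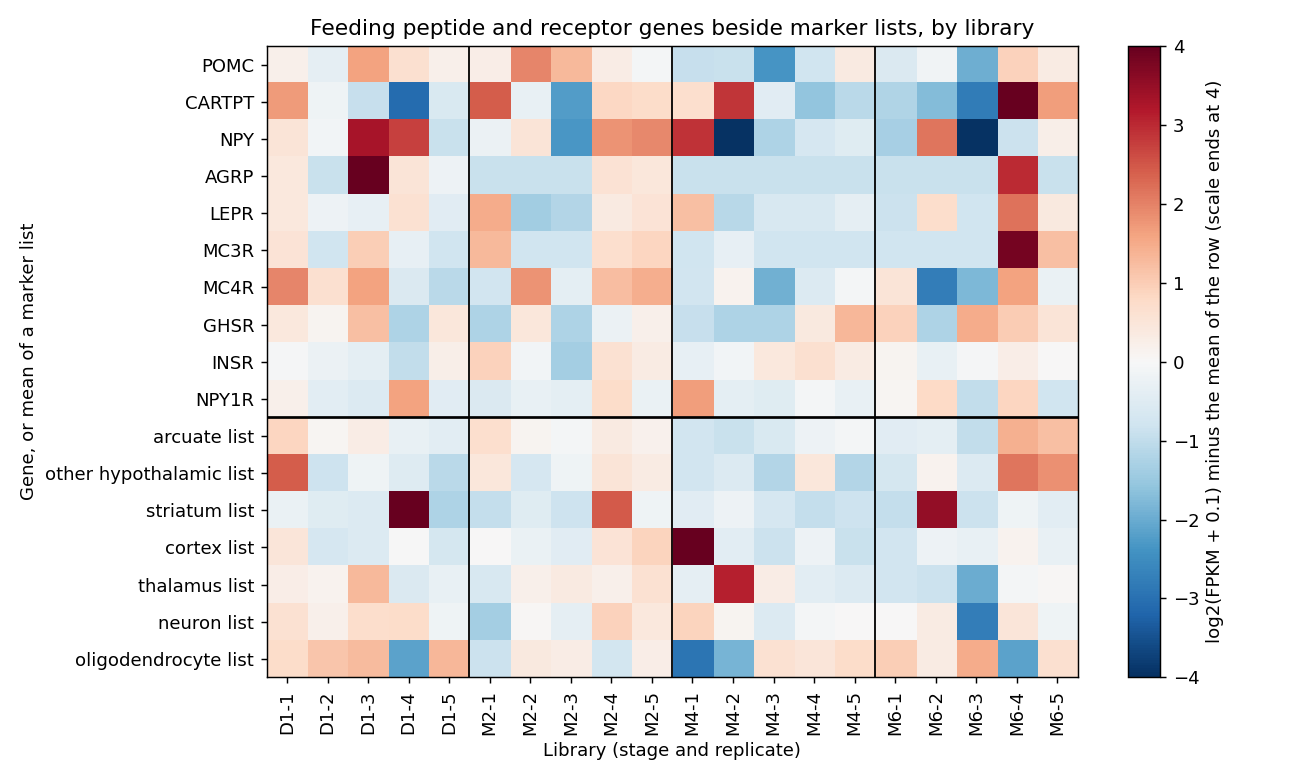
Each of the 10 genes and the mean of 7 marker lists in each library, as log2(FPKM + 0.1) minus the mean of the row, with libraries in columns ordered by stage and replicate. High CARTPT, LEPR and MC3R fall in the column of M6-4, and AGRP is highest in D1-3 and next to highest in M6-4. High NPY falls in D1-3, in M2-5 and in the 4 columns with high cortex or striatum markers (D1-4, M2-4, M4-1 and M6-2).

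LEPR, the leptin receptor, lies on chromosome 3 from 41024000 to 41180997. It was above 0 in every library, from 0.511 to 7.05 FPKM. Replicates 1 to 5 were at 2.06, 1.29, 1.18, 2.34 and 1.07 FPKM at D1 and at 4.38, 0.511, 0.600, 1.96 and 2.24 FPKM at M2. They were at 3.60, 0.631, 0.926, 0.922 and 1.13 FPKM at M4 and at 0.777, 2.51, 0.819, 7.05 and 2.00 FPKM at M6. The stages overlapped almost fully, and LEPR too was highest at D1 and M4 in the library with striatum or cortex markers. Between M2 and D1 the fold change was -0.049 (SE 0.60, interval -1.30 to 1.20, adjusted p 0.979). The F test gave an adjusted p of 0.892, and the gene-level value does not separate the long, signalling form of the receptor from the short forms.

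MC4R, the melanocortin receptor whose loss causes obesity, lies on chromosome 24 from 59345387 to 59347443 and ranged from 0 to 2.51 FPKM. Replicates 1 to 5 were at 2.51, 0.957, 1.96, 0.349 and 0.223 FPKM at D1 and at 0.300, 2.25, 0.414, 1.51 and 1.74 FPKM at M2. They were at 0.301, 0.650, 0.0789, 0.365 and 0.546 FPKM at M4 and at 0.872, 0, 0.0940, 1.95 and 0.460 FPKM at M6. No goat of M4 exceeded 0.650 FPKM, while 3 goats of D1, 3 of M2 and 2 of M6 did. The fold change was 0.16 in M2 vs. D1 (SE 0.77, interval -1.45 to 1.76, adjusted p 0.943) and the F test gave an adjusted p of 0.619.

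MC3R, the other melanocortin receptor of the circuit, lies on chromosome 13 from 58935095 to 58936185 and was detected at very low levels. It was listed at 0 in 11 of 20 libraries, reached 2.37 FPKM in M6 replicate 4, and did not exceed 0.321 FPKM elsewhere. At M4 it was listed at 0 in 4 libraries and at 0.0389 FPKM in replicate 2. In M2 vs. D1 its fold change was 0.33 (SE 0.74, interval -1.20 to 1.87, adjusted p 0.862), and the F test gave an adjusted p of 0.715.

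GHSR, the ghrelin receptor, lies on chromosome 1 from 94591325 to 94596627 and was similarly scarce, with a range of 0 to 0.549 FPKM and 6 libraries at 0. Its fold change in M2 vs. D1 was -0.60 (SE 0.62, interval -1.88 to 0.69, adjusted p 0.671), and the F test gave an adjusted p of 0.707. The libraries with striatum markers were at 0, 0.0967 and 0 FPKM and that with cortex markers at 0.0237 FPKM, the lowest or tied for the lowest of its stage except at M2 and M4, where 2 libraries each were at 0.

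INSR, the insulin receptor, on chromosome 7 from 95922066 to 96070755, was the most evenly expressed of the 10 genes, with a range of 4.20 to 20.9 FPKM. Its means were 9.35 ± 2.79, 13.1 ± 6.36, 12.8 ± 3.47 and 11.1 ± 1.57 FPKM (SD, n = 5). In M2 vs. D1 the fold change was 0.35 (SE 0.33, interval -0.33 to 1.04, adjusted p 0.626), and the F test gave an adjusted p of 0.787. This interval was the narrowest of the 10 genes, and its upper end lay just above the log2 fold change threshold of 1.

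NPY1R, a receptor through which NPY raises feeding and which is also abundant in the cortex, lies on chromosome 6 from 2687644 to 2696667. Most libraries lay in a narrow range and 1 or 2 in each stage lay far above it. Replicates 1 to 5 were at 7.20, 4.66, 4.24, 19.6 and 4.62 FPKM at D1 and at 4.20, 5.16, 4.80, 10.5 and 5.26 FPKM at M2. They were at 20.3, 4.84, 4.45, 6.02 and 5.17 FPKM at M4 and at 6.65, 10.9, 3.14, 11.6 and 3.61 FPKM at M6. The high library was the one with striatum markers at D1 and M2 and the one with cortex markers at M4, and at M6 the library with striatum markers was the next to highest after replicate 4. The fold change in M2 vs. D1 was -0.23 (SE 0.47, interval -1.22 to 0.76, adjusted p 0.849), and the F test gave an adjusted p of 0.974. Without the 4 libraries the M2 vs. D1 fold change of NPY1R was -0.065 (adjusted p 0.941). The part of cortical or striatal tissue in the high NPY and NPY1R values was not tested.

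**Figure D3:**
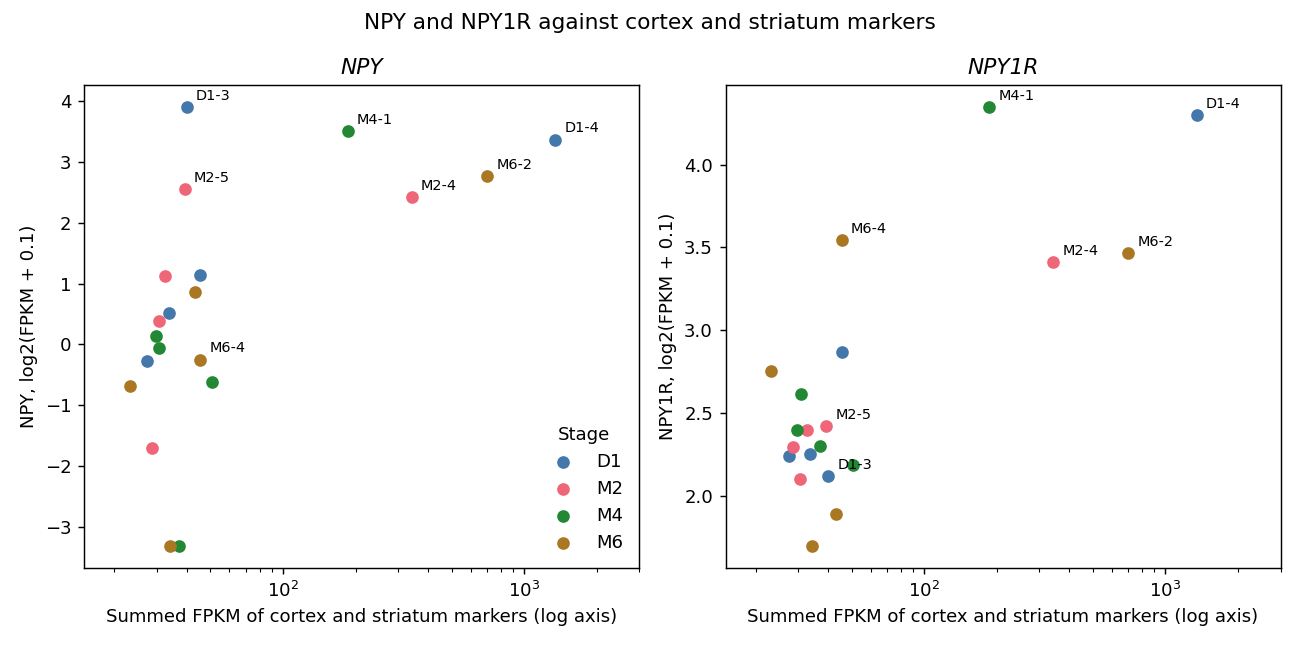
NPY and NPY1R, as log2(FPKM + 0.1), against the summed FPKM of 18 cortex and striatum markers on a log axis, with 1 point per library coloured by stage. The 4 libraries at the right of each panel are high for both genes, while D1-3 and M2-5 are high for NPY at a low marker sum and M6-4 is high for NPY1R at a low marker sum.

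The spread between goats of the same age was large for most of these genes. The SD within stages on the log2 scale was 2.21 for CARTPT, 2.08 for NPY, 1.84 for AGRP, 1.31 for MC4R, 1.20 for MC3R, 1.01 for LEPR, 0.974 for GHSR, 0.913 for POMC, 0.811 for NPY1R and 0.550 for INSR, against a median of 0.568 over all genes tested. CARTPT, NPY and AGRP lay at the 99.5th, 99.3rd and 98.6th percentiles of all genes, and INSR at the 48.0th. The share of the variance that lay between stages was 38.8% for POMC, 20.3% for MC4R and 20.2% for AGRP, and 1.76% to 16.5% for the other 7 genes. The median over all genes was 18.2%. POMC was therefore the gene of the 10 with the largest share of its variance between stages, and its spread within stages was among the lower of the peptide and receptor genes.

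**Figure D4:**
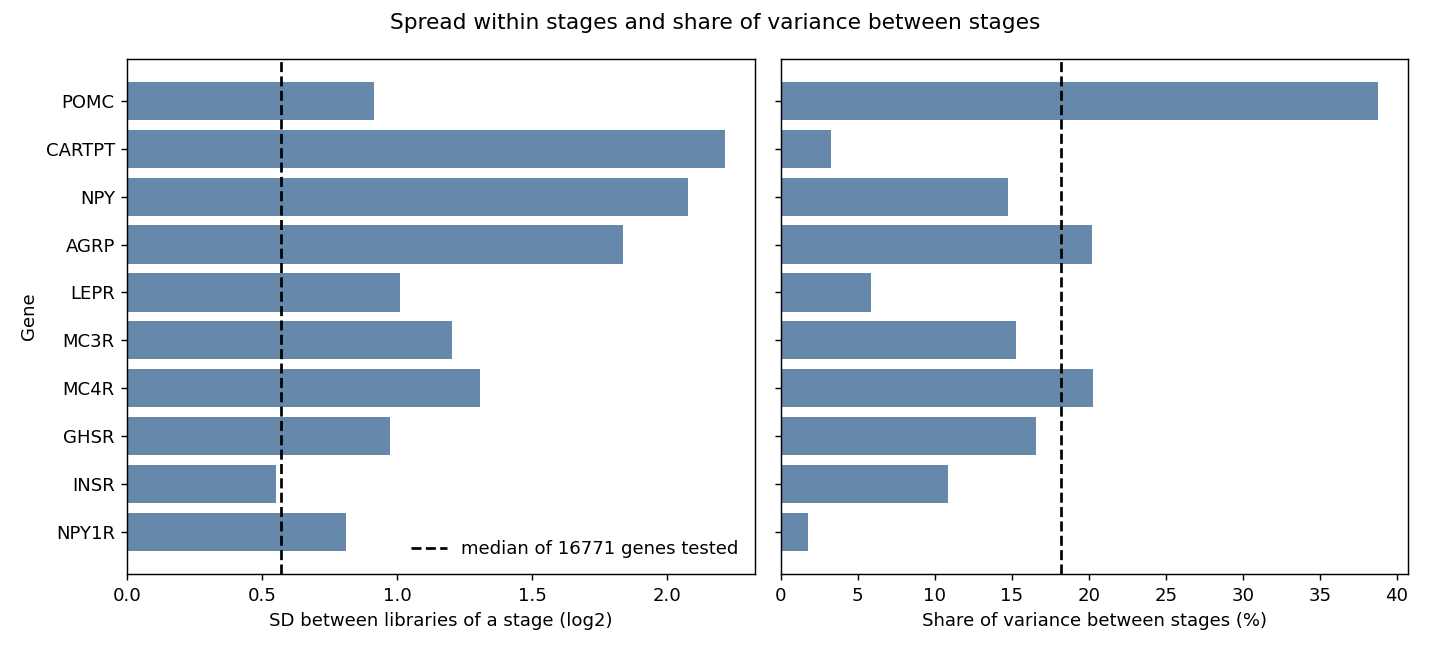
Left, SD between libraries of the same stage on the log2(FPKM + 0.1) scale for each of the 10 genes, and right, the share of variance between stages in percent, with dashed lines at the medians of the 16771 genes tested (0.568 and 18.2%). CARTPT and NPY have the longest bars on the left and POMC the longest on the right.

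Over the 10 genes, 5 were higher and 5 lower in M2 vs. D1, with a median fold change of 0.055 against -0.070 for all genes. Both in M4 vs. D1 and in M4 vs. M2, 7 were lower and 3 higher. With AGRP left out, because it was listed at 0 in all M4 libraries, the median over 9 genes was -0.51 against -0.067 for all genes in M4 vs. D1, and -0.28 against -0.021 in M4 vs. M2. The corresponding medians were 0.16 against 0.039 in M6 vs. M4. The directions of single genes in these counts were not called, as given above.

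**Figure D5:**
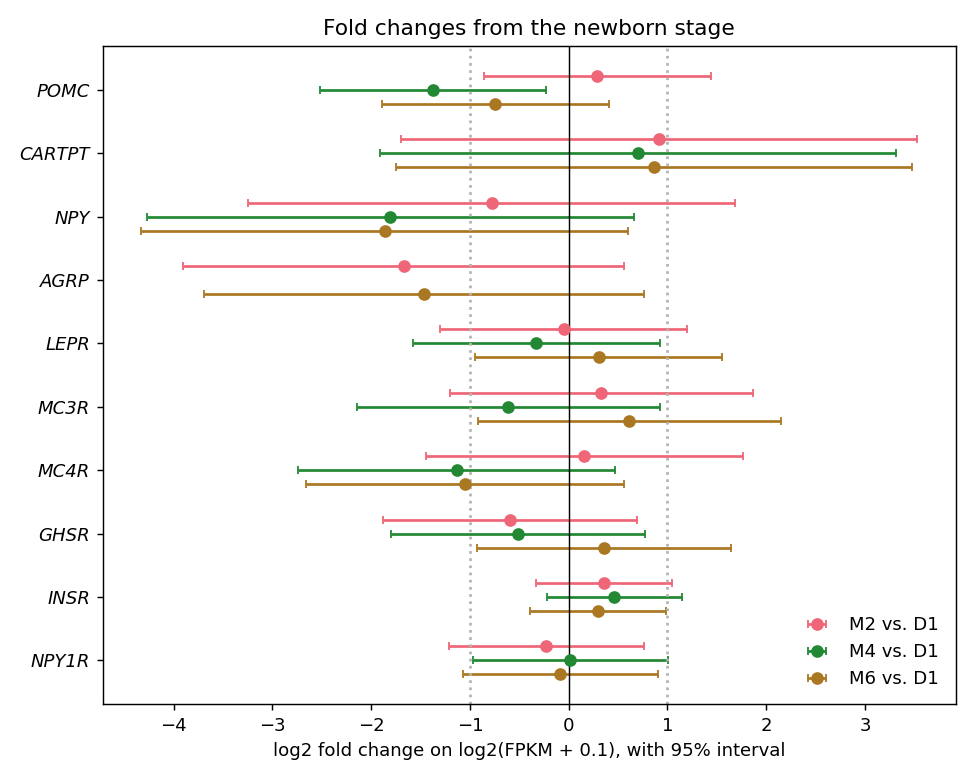
Fold change of each gene from D1 at M2, M4 and M6, as differences of log2(FPKM + 0.1) with 95% intervals, the solid line at 0 and dotted lines at the fold change threshold of 1 in each direction. AGRP has no point for M4, where it was listed at 0, and of the intervals drawn only that of POMC in M4 vs. D1 leaves out 0.

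The balance of peptides was compared through ratios within a library. The mean log2 ratio of NPY to POMC was 0.71 ± 1.27, -0.36 ± 2.28, 0.28 ± 2.53 and -0.41 ± 1.73 (SD, n = 5) at D1, M2, M4 and M6. The log2 ratio of CARTPT to POMC was -0.16 ± 2.08, 0.46 ± 2.35, 1.91 ± 2.11 and 1.45 ± 2.40. Of 12 two-sided exact permutation tests, the smallest p was 0.151, for the difference of 2.07 in the CARTPT to POMC ratio in M4 vs. D1, and after adjustment over the 12 tests the lowest p was 0.857. A design of 5 against 5 could have reached an exact p of 0.00794.

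Pairs of genes of the circuit were compared over the 20 libraries, as 6 pairs and 12 coefficients adjusted together. NPY and AGRP, made by the same arcuate neurons, had Pearson's r of 0.42 (permutation p 0.0622, adjusted p 0.324) and Spearman's rho of 0.44 (permutation p 0.0528, adjusted p 0.324), and r was 0.43 without M4 replicate 2 and M6 replicate 3, the 2 libraries farthest from the median NPY. Without D1 replicate 3 it was 0.22 (permutation p 0.363, adjusted p 0.622). POMC and CARTPT had r of 0.11 (permutation p 0.631, adjusted p 0.864) and rho of 0.039 (permutation p 0.869, adjusted p 0.948), and r was -0.087 without the 2 farthest libraries. NPY and POMC had r of 0.40 (permutation p 0.0810, adjusted p 0.324) and rho of 0.33 (permutation p 0.151, adjusted p 0.454), and r fell to 0.16 without the 2 farthest libraries, so it rests on those libraries. The other 3 pairs, LEPR with POMC, GHSR with NPY and MC4R with NPY1R, had r between -0.10 and 0.10 and rho between -0.11 and 0.18, with adjusted permutation p of 0.864 to 0.955, and r was -0.042, -0.017 and 0.14 without the 2 farthest libraries of each. Without the 4 libraries with cortex or striatum markers, r over the other 16 was 0.57 for MC4R with NPY1R (permutation p 0.0151), 0.58 for NPY with AGRP (permutation p 0.0219) and 0.54 for NPY with POMC (permutation p 0.0301), each with an adjusted p of 0.0903. The libraries share differences in region and in cell mixture, and no relation passed the adjustment.

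The genes whose pattern over the 20 libraries was most like each member were found by Spearman's rho among 14424 tested genes with a symbol. These were MOGS (0.865), ACTRT3 (0.824) and TMCO3 (0.779) for POMC, CHD5 (0.878), MEIS3 (0.869) and INPP5B (0.862) for CARTPT, HS6ST3 (0.818), CKAP2 (0.815) and ING2 (0.811) for NPY, and UCN3 (0.824), CKS1B (0.792) and ACTC1 (0.782) for AGRP. For the hormone receptors they were C14H8orf34 (0.859), ZNF831 (0.856) and ONECUT1 (0.837) for LEPR, KIAA1328 (0.814), SRRM1 (0.795) and QSER1 (0.794) for INSR, and SEC23B (0.854), AK3 (0.837) and SLAMF1 (0.812) for GHSR. For the peptide receptors they were GNRH1 (0.846), ANKFN1 (0.803) and TAF6 (0.802) for MC3R, SLC26A11 (0.838), NRSN2 (0.830) and PLCXD3 (0.827) for MC4R, and AFTPH (0.913), CLIP4 (0.880) and ZBTB11 (0.874) for NPY1R. No member of the circuit appeared among the 3 genes most like another member. The genes named are the highest of 14424 coefficients and share the libraries, so the coefficients are descriptions. AGRP and MC3R were at 0 in 13 and 11 libraries, and their rho rests on the few libraries above 0.

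The rest of the pathway was read from 7 lists with 110 genes, of which 104 were in the table and 91 were tested. The F test called 0 of the 91, and 7 (7.69%) had an unadjusted p under 0.05 against 10.4% of all genes. Of 8 genes that process the precursors, 0 passed at an unadjusted p under 0.05. The smallest p were those of CPE, the carboxypeptidase that trims prohormones (0.0973, adjusted p 0.522), and PCSK1, the convertase that cuts POMC (0.263, adjusted p 0.637). CPE was abundant in every library, with means of 379 ± 96.4, 258 ± 63.0, 324 ± 87.7 and 258 ± 52.3 FPKM (SD, n = 5) at D1, M2, M4 and M6.

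Among 16 other tested receptors, 1 had an unadjusted p under 0.05 in the F test. This was BRS3, an orphan receptor of the bombesin family that acts in energy balance (p 0.00782, adjusted p 0.385), with means of 0.822 ± 0.513, 0.882 ± 0.500, 0.0990 ± 0.136 and 2.74 ± 4.16 FPKM. It was followed by ADIPOR1, a receptor for adiponectin (p 0.0527, adjusted p 0.482). Of 10 accessory genes, MRAP, a partner of melanocortin receptors, had a p of 0.0332 (adjusted p 0.460) and LEPROT, which shares the LEPR locus, a p of 0.0612 (adjusted p 0.495). BRS3 was lowest at M4, as were POMC and ISL1, and 3 of its 5 M4 libraries were at 0.

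Of 24 genes of leptin and insulin signalling, 3 had an unadjusted p under 0.05 in the F test and 0 were called. IRS1, an insulin receptor substrate, had means of 7.47 ± 1.83, 17.2 ± 6.34, 12.7 ± 5.46 and 10.99 ± 6.13 FPKM (p 0.0255, adjusted p 0.438). GSK3B, a kinase held back by insulin signalling, had means of 29.6 ± 7.13, 22.8 ± 7.73, 35.7 ± 7.93 and 21.2 ± 7.92 FPKM (p 0.0387, adjusted p 0.464). The third was GRB14, an adaptor that inhibits the insulin receptor. Among 13 genes of melanocortin and NPY receptor coupling 0 passed, with BDNF (p 0.157, adjusted p 0.569) and PRKACB (p 0.189, adjusted p 0.592) first.

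Of 18 tested arcuate factors and neuron genes, 2 had an unadjusted p under 0.05 in the F test, ISL1 (p 0.0112, adjusted p 0.400) and TBX3, a factor that keeps arcuate neurons in their identity (p 0.0411, adjusted p 0.468). TBX3 had means of 0.616 ± 0.210, 0.481 ± 0.185, 0.244 ± 0.130 and 0.367 ± 0.163 FPKM, so the lowest mean was again at M4. The genes of peripheral hormones were scarce. LEP, GCG, PPY and MBOAT4 were listed at 0 in every library, GHRL and INS were above 0 in 1 library each, and of the 2 tested genes of this list, NUCB2 (p 0.257, adjusted p 0.633) and CCK (p 0.990, adjusted p 0.995), 0 passed. Of 106 tested genes in 12 lists of markers for other regions and cell types, the F test called 0 and 10 (9.43%) had an unadjusted p under 0.05, with the lowest adjusted p at 0.303 for CGA, the alpha subunit of pituitary glycoprotein hormones.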

How the data were processed

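The data were FPKM values per gene of 20 hypothalamus libraries, 5 goats a stage. According to the study's methods and notes, the authors removed rRNA, made strand-specific libraries, aligned reads with HISAT2 2.0.5, assembled transcripts with StringTie 1.3.3b and deposited FPKM per gene. The values were not whole multiples of a read, with at most 12.5% of low genes at 1 ratio between libraries, so read numbers per gene could not be rebuilt, and the sequencing totals given in the study were not used here. Summed FPKM ran from 260199 to 377479. Genes were matched by NCBI Gene ID to the ARS1.2 annotation, and 20610 of 21071 had a symbol.

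Genes that reached 0.1 FPKM in 5 or more libraries were fitted as log2(FPKM + 0.1) with limma 3.58.1 in R 4.3.3, with 4 stages, a variance trend and no block. P values were adjusted over all 16771 genes. Ratios and correlations used Python 3.11.15 and scipy 1.17.1, with exact permutations or 100000 permutations. The fit was tested on simulated data. Other pseudocounts, filters, scalings, variance models, a replicate block, a marker covariate and the omission of each library were tried. The genes and lists were chosen with earlier results of these data known. Named are the 10 genes, their 3 most alike genes and the 2 genes of each pathway list with the smallest F test p. The marker genes of single libraries, ISL1 and NKX2-1 at M4 and GRB14 were chosen after their values were seen.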

Additional observations from a re-analysis of the deposited data

Results flagged for a closer look

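Values of the 10 genes were checked for a library far from the other 4 of its stage, with Dixon's critical value of 0.71 for 5 samples. Of 40 groups, 5 passed. Chance passes about 1 group in 20 of normally distributed values, and this rate does not hold for groups with several libraries at 0. A single value above 0 beside 4 at 0 passes whatever its size, as for AGRP at M6 and MC3R at M4. AGRP at M4, at 0 throughout, could not pass. AGRP was 21.7 FPKM in D1 replicate 3 against 0 to 0.168 FPKM in the other goats of D1. AGRP was 1.36 FPKM in M6 replicate 4 against 0 in the others. MC3R was 0.0389 FPKM in M4 replicate 2 against 0 in the others. NPY1R was 10.5 FPKM in M2 replicate 4 against 4.20 to 5.26 FPKM in the others, and 20.3 FPKM in M4 replicate 1 against 4.45 to 6.02 FPKM in the others. M2 replicate 4 and M4 replicate 1 are libraries with striatum and cortex markers, respectively.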

How the results depend on the processing

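The count of called genes stayed at 0 in the F test under 32 alternatives and in each of the 6 comparisons under 34, and the lowest adjusted p of any F test was 0.301, for POMC. The numbers of the replicates do not pair the goats: the correlation of deviations over 30 pairs with the same number was -0.25 to 0.43, with 7 over 0.1, and 3 of 20 libraries were closest to their own number. With the replicate block the count was 0 in the F test and in each comparison. The cause of the changes of sign below was not tested, and no value concerned was called. With quality weights, M2 vs. D1 became -0.00371 for POMC, 0.25 for NPY, 0.17 for LEPR and 0.056 for NPY1R. LEPR was also 0.048 with a pseudocount of 1 and 0.012 with median-ratio scaling, and MC4R was -0.088 with quantile normalization. Without the 4 libraries with cortex or striatum markers, an alternative added after seeing the data, M2 vs. D1 was -0.26 for MC4R and -0.28 for the CARTPT to POMC ratio, that ratio was 0.21 in M6 vs. M4, and r was 0.27 for GHSR with NPY and rose from 0.013 to 0.57 for MC4R with NPY1R, from 0.42 to 0.58 for NPY with AGRP and from 0.40 to 0.54 for NPY with POMC. Without the 3 libraries low in neuron markers, also added, NPY was 0.30 in M2 vs. D1, the NPY to POMC ratio was 0.025 in M2 vs. D1 and -0.46 in M4 vs. M2, and r was -0.15 for MC4R with NPY1R. With a pseudocount of 1 the NPY to POMC ratio was 0.11 in M6 vs. M2 and the CARTPT to POMC ratio 0.041 in M6 vs. M4. On FPKM without a log, r was -0.00317 for LEPR with POMC and -0.069 for MC4R with NPY1R.

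Leaving out each library in turn moved M2 vs. D1 from -0.011 to 0.57 for POMC, -0.43 to 0.29 for LEPR, -0.23 to 0.52 for MC4R, -0.45 to 0.16 for NPY1R and -2.23 to -0.29 for AGRP, the last without D1 replicate 3. It moved NPY from -1.28 (without D1 replicate 5) to -0.11 (without M2 replicate 3), CARTPT from 0.30 (without D1 replicate 4) to 1.54 (without M2 replicate 3), INSR from 0.14 (without M2 replicate 1) to 0.71 (without M2 replicate 3), MC3R from 0.072 (without M2 replicate 1) to 0.59 (without D1 replicate 3) and GHSR from -0.95 (without D1 replicate 4) to -0.34 (without D1 replicate 3). For POMC it moved M4 vs. M2 from -1.98 to -1.31 and M4 vs. D1 from -1.69 to -1.02. The NPY to POMC ratio moved from -0.26 to 1.46 in M4 vs. M2, -1.51 to 0.21 between M6 and M4, -1.33 to 0.39 between M4 and D1 and -0.85 to 0.55 in M6 vs. M2. The CARTPT to POMC ratio moved from -0.039 to 1.39 in M2 vs. D1 and -1.43 to 0.22 in M6 vs. M4. The r moved from 0.22 (without D1 replicate 3) to 0.50 for NPY with AGRP, 0.26 (without M6 replicate 3) to 0.51 for NPY with POMC, -0.026 to 0.20 for POMC with CARTPT, -0.0048 to 0.29 for LEPR with POMC, -0.28 to 0.068 for GHSR with NPY and -0.093 to 0.16 for MC4R with NPY1R. Without read counts, the error of values near 0 is unknown.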
